A study of Mus musculus with 12 samples.

Results

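The ABC transporter family was examined in the fetal mouse ovary, in germ cells and somatic cells, with and without maternal exposure to the glucocorticoid receptor agonist dexamethasone (dex). Members were all protein-coding genes of the count table with an Abca to Abcg symbol (Abcc9 was not analysed here), which gave 49 genes of 54532. All animals were female embryos of the Tg(Pou5f1-EGFP)2Mnn reporter strain, in which green fluorescent protein (GFP) under Pou5f1 (OCT4) regulatory sequence marks germ cells. Pregnant dams received 10 µg of dex per g of body weight, or saline, by 1 intraperitoneal injection on each embryonic day (E) from E12.5 through E15.5, 4 in all, and the ovaries were taken on the day of the last injection. Sorted GFP-positive cells were the germ cells, and the somatic fraction was every GFP-negative cell of the ovary, a mixture of types. Each of the 4 groups (germ dex, germ saline, somatic dex, somatic saline) held 3 libraries, each pooled from the ovaries of several litters, so that no value belongs to 1 embryo.

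ABC (ATP-binding cassette) proteins use ATP to move molecules across membranes, apart from the ABCE and ABCF proteins, which have no membrane part and act on ribosomes and translation. Several members set how much steroid, drug or cholesterol stays in a cell: Abcb1a and Abcb1b encode the mouse forms of P-glycoprotein, which exports many drugs and glucocorticoids including dex, Abcg2 encodes an exporter of drugs, sulfated steroids and porphyrins, and Abca1 encodes the pump that loads cholesterol onto apolipoproteins. In the ovary the family is known for cholesterol supply and drug efflux, and Abcg2 is a known marker of stem-like, endothelial and erythroid cells in other tissues.

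Libraries held 14658503 to 17616664 counts in germ cells and 15161804 to 18245507 in somatic cells, so depth overlapped. Levels of 1 gene across libraries are given in CPM (library-scaled counts), and levels of different genes are compared in FPKM, which also divides by transcript length. A count of 3, taken as the floor of detection, was 0.169 to 0.196 CPM, and floors and count intervals here cover counting error only. Germ cell markers separated the fractions: Ddx4, a germline RNA helicase, averaged 608 CPM in saline germ cells, and the somatic libraries held 0.0825% to 0.367% of that level. Somatic markers were also read in the saline germ libraries. Over 6 pregranulosa markers these held 26.5 to 52.9 CPM, against 986 to 1080 CPM in the saline somatic libraries. Over 6 stromal markers they held 85.4 to 132 CPM against 13929 to 15530 CPM. Over 8 macrophage markers they held 34.0 to 43.0 CPM against 188 to 262 CPM. Among single markers Foxl2 averaged 7.41 against 66.7 CPM. Mrc1, at 31.7 against 72.4 CPM, was the larger part of the macrophage sum in germ cells. The next highest of that list there, Csf1r, averaged 2.69 against 56.1 CPM. The part of somatic RNA in low germ cell values was not tested. In bulk samples fewer cells of a type and less RNA per cell cannot be told apart, which holds for each difference below.

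Where the family was expressed was asked first. ABC genes took 0.24% to 0.259% of all counts in the 6 germ cell libraries and 0.122% to 0.128% in the 6 somatic libraries, with no overlap. Summed FPKM was 424 to 454 in germ cells and 202 to 208 in somatic cells. Between 48 and 49 members had at least 1 count in a germ cell library, against 41 to 45 in a somatic library. Of the 49 members, 19 averaged at least 1 FPKM in both saline groups, 7 in germ cells alone (Abca8a, Abca16, Abcb1a, Abcb4, Abcb5, Abcb9 and Abcc4), 6 in somatic cells alone (Abca7, Abca9, Abcc3, Abcd2, Abcg4 and Abcg5) and 17 in neither. No member was at or under 3 counts in all 12 libraries.

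In the edgeR test of germ against somatic cells in saline, 46 members passed the low-count filter. At a Benjamini-Hochberg (BH) adjusted p of at most 0.05, 40 members differed, or 87%, where 86.1% of the 17941 genes tested did. Of those, 27 members were higher in germ cells (43.1% of all genes were) and 13 were lower (42.9% of all genes were). The median log2 difference was 0.98 over the members and 0.005 over all genes. Abca4, Abca12, Abcb6, Abcc2, Abcc6 and Abcg1 were tested and not called, and Abca15, Abcc12 and Abcg8 did not pass the filter.

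**Figure D1:**
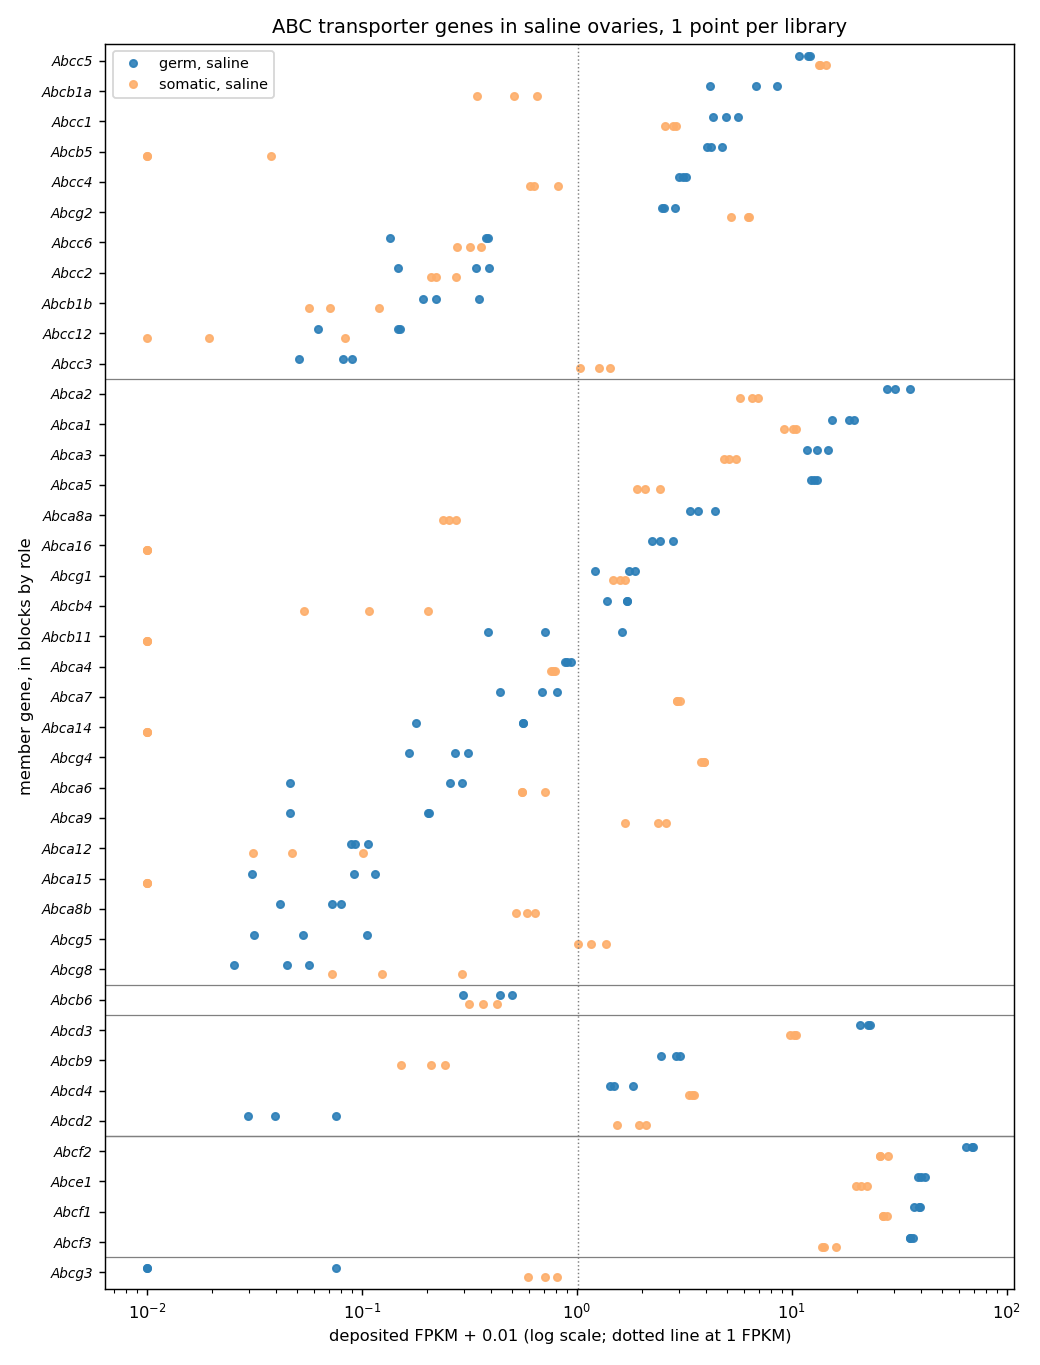
Deposited FPKM plus 0.01 (log axis) of 41 of the 49 members, those named in the text, in the 3 germ (blue) and 3 somatic (orange) saline libraries, 1 point per library, in blocks by role: exporters, lipid transporters, mitochondrial, peroxisomal and lysosomal, soluble ATPases and Abcg3. The soluble ATPases at the bottom sit to the right in both cell types, and the points of Abcb5, Abca16 and Abcb11 in somatic cells sit at or near the left edge, which is 0 FPKM.

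The soluble ATPases were among the most abundant members in both cell types. In saline germ cells Abcf2 (a translation-associated ATPase) averaged 67.7 ± 2.51 FPKM (SD, n = 3), the ribosome recycling factor Abce1 40.2 ± 1.51, Abcf1 38.5 ± 1.40 and Abcf3 35.9 ± 0.757. The libraries of Abce1 and Abcf1 overlapped, and those of Abcf2 and Abce1, and of Abcf1 and Abcf3, did not. In saline somatic cells the order was Abcf1 (26.9 ± 0.662), Abcf2 (26.4 ± 1.23), Abce1 (21.0 ± 1.23), Abcf3 (14.6 ± 1.18) and the organic anion exporter Abcc5 (13.8 ± 0.600), with overlap between Abcf1 and Abcf2 and between Abcf3 and Abcc5, and none between the other neighbours in this order. All 4 soluble ATPases were higher in germ cells, by log2 differences of 0.47 to 1.31.

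Among the 12 drug, steroid and anion exporters, 11 were tested between the cell types, with 6 higher in germ cells and 3 lower. Abcb1a was read at 37.0, 23.0 and 46.6 CPM in the 3 saline germ libraries and at 1.88, 2.84 and 3.64 CPM in the saline somatic libraries. The groups did not overlap, and the log2 difference was 3.66 ± 0.27 (SE; edgeR adjusted p = 5.66e-09). Abcb1b was at 2.71, 1.48 and 1.68 CPM against 0.502, 0.387 and 0.909 CPM, again without overlap (log2 difference 1.68 ± 0.44, edgeR adjusted p = 0.00248). In FPKM, Abcb1a averaged 6.51 ± 2.20 and Abcb1b 0.246 ± 0.0849 in saline germ cells. Reads shared by the close copies Abcb1a, Abcb1b and Abcb4 may be split between them, since how multi-mapped reads were counted was not stated.

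Abcb5, an exporter known from melanoma stem-like cells, was nearly restricted to the germ fraction in saline. It had 316, 302 and 316 counts in the germ libraries and 2, 0 and 0 counts in the somatic libraries, a ratio of 451 (95% counting interval 124 to 3727). Abcc4, which exports cyclic nucleotides, prostaglandins and steroid conjugates, averaged 19.8 ± 0.909 CPM in germ and 4.45 ± 0.769 CPM in somatic cells (log2 difference 2.15 ± 0.16, edgeR adjusted p = 8.94e-09). Abcc1, a glutathione conjugate exporter, was at 74.3 ± 9.35 and 42.7 ± 2.47 CPM (0.80 ± 0.10, edgeR adjusted p = 1.76e-06).

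The opposite direction held for Abcg2, Abcc3 and Abcc5. Abcg2 read 20.0, 20.8 and 23.0 CPM in the germ and 51.9, 53.2 and 43.8 CPM in the somatic libraries of the saline group, a log2 difference of -1.22 ± 0.11 (edgeR adjusted p = 4.25e-08). Abcc3, a bile salt and glucuronide exporter, was at 0.366 ± 0.117 CPM against 7.25 ± 1.22 CPM (-4.29 ± 0.33, edgeR adjusted p = 1.08e-08). The P-glycoprotein genes and Abcg2 thus lay on opposite sides of the germ and somatic sort, with no overlap between libraries for any of the 3.

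Among the 22 sterol, phospholipid and bile salt transporters, 20 were tested, with 11 higher and 6 lower in germ cells. Abca16, a member of a rodent Abca gene group on chromosome 7, had 307, 296 and 272 counts in the saline germ libraries and 0 in each saline somatic library, which made it at least 94.1-fold higher against a floor of 3 counts per library. The bile salt export pump gene Abcb11 was at least 24.4-fold higher and Abca14, of the same group as Abca16, at least 13.3-fold higher on the same floor. Abcb11 varied widely, at 8.19, 1.95 and 3.60 CPM in the saline germ libraries. Abca14 and Abca16 are close copies of each other, so their separate values are uncertain.

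Among saline libraries Abca1 averaged 183 ± 20.6 CPM in germ and 106 ± 6.88 CPM in somatic cells (log2 difference 0.79 ± 0.09, edgeR adjusted p = 8.51e-07). Abcg1, which passes cholesterol to high-density lipoprotein, did not differ detectably, at 6.49 ± 1.36 and 6.57 ± 0.416 CPM, with a difference of -0.02 and a 95% interval of -0.42 to 0.38. Abcg4, a close relative of Abcg1 known from the brain, was at 1.25 ± 0.400 CPM in germ and 20.7 ± 0.347 CPM in somatic cells (-4.04 ± 0.21, edgeR adjusted p = 1.06e-10). Abcg5, the plant sterol and cholesterol exporter subunit, had 4, 2 and 1 counts in germ and 51, 59 and 46 counts in somatic cells (-4.46 ± 0.48, edgeR adjusted p = 5.29e-07), and part of its locus overlaps its partner Abcg8, so reads of the pair may be shared. Abcg3, a rodent relative of Abcg2 with no well-known substrate, had 0, 4 and 0 counts in the saline germ libraries, on average under the floor of 3, and 34, 40 and 48 in the saline somatic libraries. Its fitted log2 difference of -4.86 (edgeR adjusted p = 7.38e-06) depends on the prior count of the fit and became -8.36 without germ saline replicate 2, which held the 4 counts.

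The organelle transporters also split. Abcd2, a peroxisomal fatty acid importer, was lower in germ cells, at 0.387, 0.177 and 0.116 CPM in germ and 11.9, 12.9 and 9.33 CPM in somatic saline libraries (-5.63 ± 0.34, edgeR adjusted p = 6.64e-10). The lysosomal peptide transporter Abcb9 was at 15.6 ± 1.47 and 1.11 ± 0.273 CPM (3.80 ± 0.23, edgeR adjusted p = 4.44e-10). Of the 4 mitochondrial members, which serve iron, haem and peptide export, 2 were higher in germ cells and 1 was lower.

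Members that lie side by side in the genome could differ in the sign of this contrast, in which 43.1% of all genes were called higher and 42.9% lower. On chromosome 11 (GRCm38), 5 members of 1 strand follow each other between positions 109932190 and 110337716, in the order Abca8b, Abca8a, Abca9, Abca6 and Abca5. Abca8a and Abca5 were higher in germ cells, by 3.90 ± 0.19 and 2.53 ± 0.09 on the log2 scale, and Abca8b, Abca9 and Abca6 were lower (-3.42 ± 0.36, -4.01 ± 0.34 and -1.68 ± 0.45), each with an edgeR adjusted p of 0.00301 or less. Abca8a lay between 2 members with the opposite sign. Reads shared by the close copies Abca8a and Abca8b may be split between them, and Abca8b had 8, 4 and 8 counts in the saline germ libraries. On chromosome 5 the neighbours Abcb1a, Abcb1b and Abcb4, between positions 8660077 and 8959231, were all higher in germ cells.

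**Figure D2:**
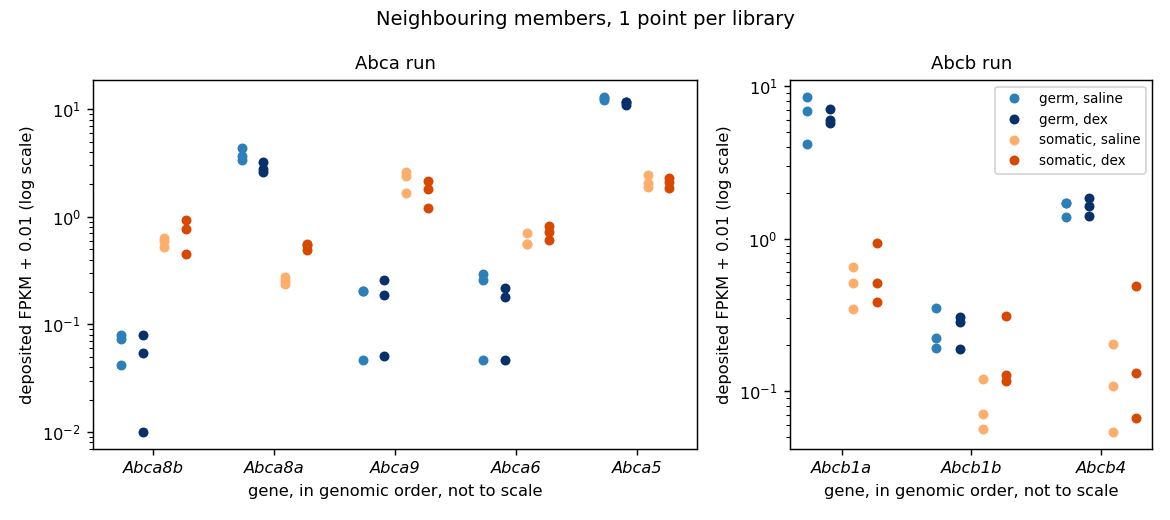
Deposited FPKM plus 0.01 (log axis) of neighbouring members in genomic order, 1 point per library, with germ cells in blue shades and somatic cells in orange shades, dex darker than saline. On chromosome 11 Abca8a and Abca5 are high in germ cells while Abca8b, Abca9 and Abca6 are high in somatic cells, and in somatic dex cells the Abcb genes on chromosome 5 each have 1 point well above the other 2.

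Whether dex changed the family was asked within each cell type. In germ cells 42 of the 49 members passed the filter and none was called by edgeR, where 0.208% of 16857 genes were. At an unadjusted p under 0.05 there were 4 members, of which 1, Abcc2, was higher and 3, Abca8a and Abcd3 among them, were lower, and 11.6% of all genes. DESeq2 called none either. The lowest edgeR adjusted p of any member was 0.328. Members with a mean of at least 10 CPM, 26 in number, moved by at most 0.39 on the log2 scale.

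The steroid exporters were therefore read in germ cells with these limits. Abcb1a was at 31.3, 32.5 and 39.3 CPM after dex and 37.0, 23.0 and 46.6 CPM after saline, and the saline values spanned the dex values. The log2 fold change was -0.03, with a 95% interval of -0.41 to 0.35. For Abcb1b it was 0.05 (-0.62 to 0.73), for Abcg2 0.11 (-0.12 to 0.34), for Abcc1 -0.03 (-0.22 to 0.17) and for Abcc4 0.11 (-0.12 to 0.35). For Abca1 it was -0.13 (-0.30 to 0.05) and for Abcg1 -0.26 (-0.77 to 0.24).

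**Figure D3:**
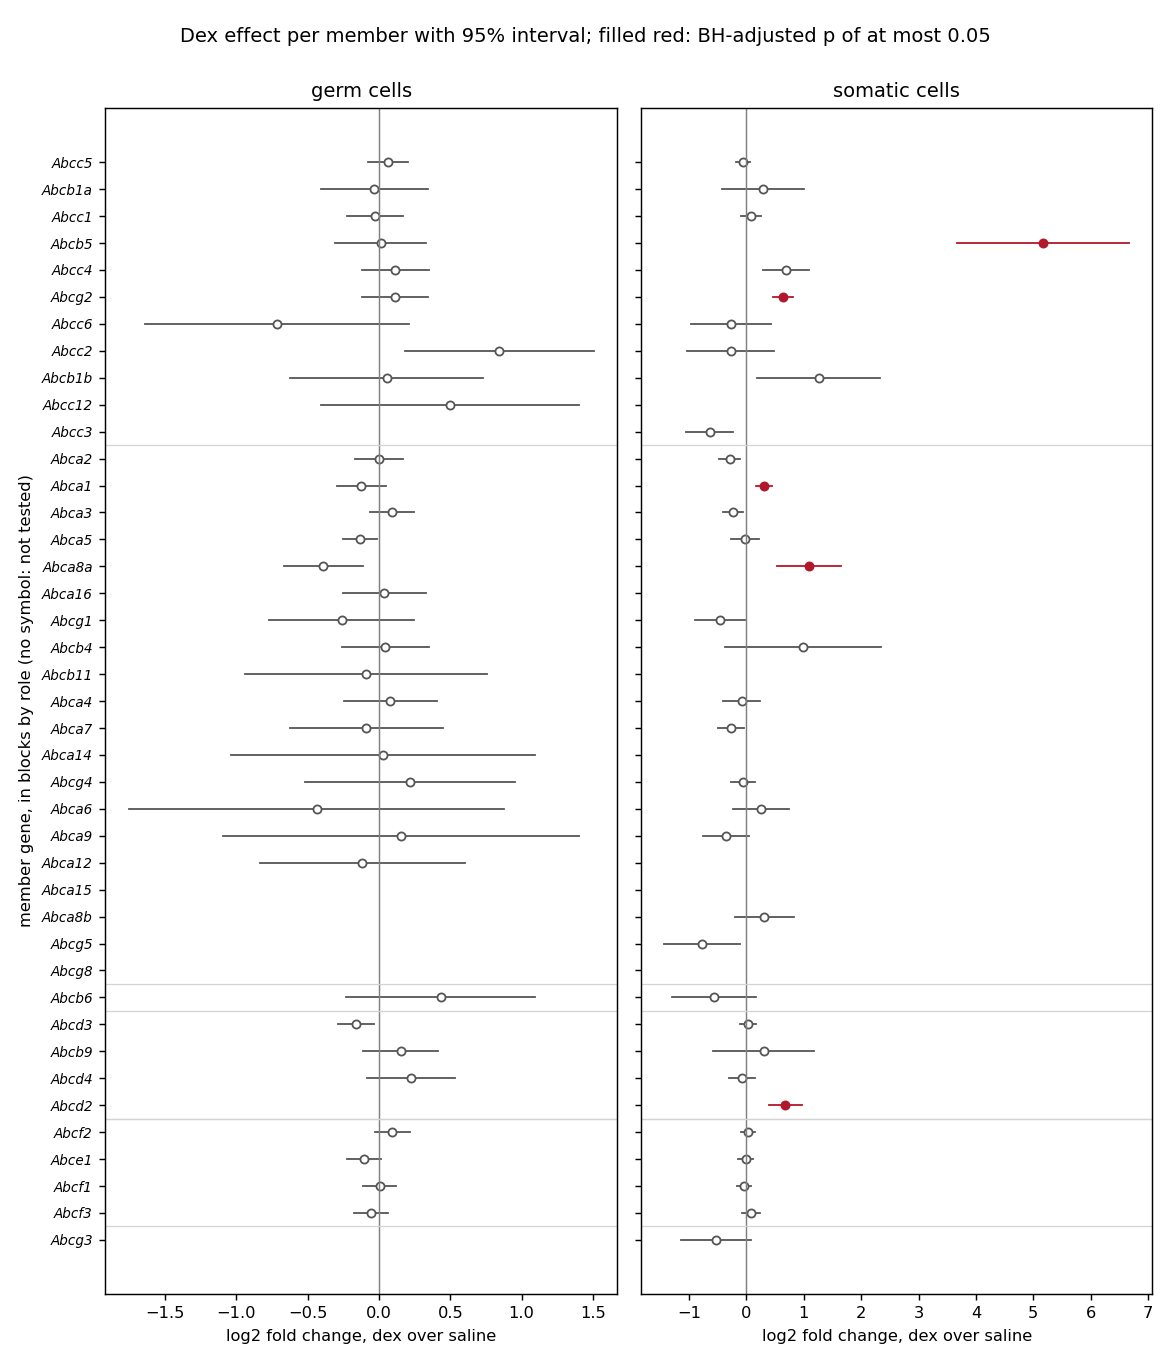
Log2 fold change of dex over saline with its 95% interval for the tested ones of the same 41 members in germ cells (left) and somatic cells (right), in the same blocks by role, with the x axes on different scales. Filled red symbols mark the 5 somatic members with a BH-adjusted p of at most 0.05, Abcb5, Abcg2, Abca1, Abca8a and Abcd2, all to the right of 0, and no germ cell symbol is filled.

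In somatic cells 39 members were tested and 5 rose after dex: Abcb5, Abca8a, Abcd2, Abcg2 and Abca1. These were 12.8% of the tested members, where 8.18% of all 16556 genes were called in either direction and 4.81% were called higher. No member was called lower by edgeR in this fit or by DESeq2, which called the same number of members. Without somatic dex replicate 3, Abca2, Abca3 and Abcc3 were called lower (edgeR adjusted p = 0.0187, 0.0449 and 0.0406), and Abca2 also with no low-count filter (0.0172). Beyond the 5, an unadjusted edgeR p under 0.05 was found for Abcb1b and Abcc4 (higher) and for Abca2, Abca3, Abca7, Abcc3 and Abcg5 (lower). The median log2 fold change was -0.06 over the members and 0.00 over all genes. By role, 2 of 11 tested exporters, 2 of 14 lipid transporters and 1 of 5 peroxisomal and lysosomal members rose, and none of the 4 mitochondrial members or 4 soluble ATPases was called.

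Sequence upstream of the genes was read for 3 members that rose, because the glucocorticoid receptor is known to bind DNA. RefSeq windows of 250 bases before to 50 after the gene start (GRCm38.p6) were found for 37 of the 49 members, and both strands were searched. The full receptor element, taken as the hexamer AGAACA followed after 3 bases by its reverse complement, occurred in 0.00913% of all 32851 windows and in none of the members' 44 windows. The hexamer alone occurred in 19.0% of all windows and in 11 of the members' 44 windows, which belonged to 11 of the 37 members. Among these were Abca1 and Abcb5 and not Abca8a or Abcg2, and Abcd2 had no window. The direct repeat of the liver X receptors, taken as the exact hexamer AGGTCA repeated after 4 bases, occurred in 0.0152% of all windows and in no member's window. Both full elements were searched as exact strings, which are too rare for their absence from 44 windows to be informative. Variant forms of the elements were not searched, so these results do not show whether a member has a site for either receptor. The upstream bases of these 3 members are shown, with the hexamer in capitals, on chr4:53159896-53160145, chr12:118966422-118966671 and chr11:110095938-110096187, all minus strand, written 5′ to 3′ up to the base before the start.
Abca1: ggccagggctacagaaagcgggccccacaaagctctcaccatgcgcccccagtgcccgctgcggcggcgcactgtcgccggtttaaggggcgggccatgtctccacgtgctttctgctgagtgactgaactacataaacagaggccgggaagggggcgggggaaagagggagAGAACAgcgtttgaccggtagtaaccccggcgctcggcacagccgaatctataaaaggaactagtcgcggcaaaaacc
Abcb5: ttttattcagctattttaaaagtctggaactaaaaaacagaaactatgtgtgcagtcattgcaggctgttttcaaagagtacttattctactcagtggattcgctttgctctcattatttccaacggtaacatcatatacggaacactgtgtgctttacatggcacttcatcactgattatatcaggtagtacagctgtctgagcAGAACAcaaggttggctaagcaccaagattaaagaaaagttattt
Abca8a: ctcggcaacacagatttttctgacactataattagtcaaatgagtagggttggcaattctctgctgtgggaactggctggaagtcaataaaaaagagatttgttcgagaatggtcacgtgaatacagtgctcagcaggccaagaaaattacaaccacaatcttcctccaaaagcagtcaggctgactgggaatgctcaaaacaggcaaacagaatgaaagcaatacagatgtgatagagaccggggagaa
The hexamer began 78 bases before the start in Abca1 and 45 bases before it in Abcb5. A match describes these letters only.

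Abcg2 (ENSMUSG00000029802, chromosome 6, 58584523 to 58695676) gave the lowest p. It was at 51.9, 53.2 and 43.8 CPM in the saline somatic libraries and 79.6, 81.9 and 69.1 CPM in the dex somatic libraries. All dex values lay above all saline values. The mean was 49.6 ± 5.11 CPM (SD, n = 3) after saline and 76.9 ± 6.84 CPM after dex, a rise of 0.64 ± 0.09 (SE) on the log2 scale (edgeR adjusted p = 0.000529), and it was called in all 12 alternative analyses. In germ cells Abcg2 read 22.4, 20.4 and 25.2 CPM after dex against 20.0, 20.8 and 23.0 CPM after saline, and the groups overlapped. The difference between the dex effects of the cell types was -0.54 ± 0.15 and missed the threshold (edgeR adjusted p = 0.0851).

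Abcb5 (ENSMUSG00000072791, chromosome 12, 118867824 to 118966421) had 30, 37 and 24 counts in the dex somatic libraries against 2, 0 and 0 counts after saline, which is 1.79, 2.08 and 1.41 CPM against 0.125, 0 and 0. The ratio of the summed counts was 42.3 (95% counting interval 11.4 to 355), and the groups did not overlap (fitted log2 fold change 5.17, which depends on the fit's prior count, edgeR adjusted p = 0.00074). In germ cells it read 22.0, 19.6 and 14.6 CPM after dex and 20.4, 17.8 and 18.3 CPM after saline, with overlap. The dex effects of the cell types differed by -5.17 (germ minus somatic, edgeR adjusted p = 0.000346).

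Abca8a (ENSMUSG00000041828, chromosome 11, 110025634 to 110095978), a lipid transporter gene with close copies next to it, was at 3.40, 3.54 and 3.11 CPM after dex and 1.57, 1.48 and 1.70 CPM after saline in somatic cells. The groups did not overlap, and the log2 fold change was 1.09 ± 0.29 (edgeR adjusted p = 0.0325). The call was lost in 5 of the 6 fits that left out 1 somatic library (edgeR adjusted p from 0.0805 to 0.123) and kept without dex replicate 3 (0.0351). In germ cells Abca8a read 20.1, 17.2 and 16.4 CPM after dex, all below the saline values of 27.2, 23.2 and 21.0 CPM, and the fold change of -0.39 ± 0.14 (log2) missed the threshold (edgeR adjusted p = 0.328). The difference between the cell types was -1.49 ± 0.25 (edgeR adjusted p = 0.00607) and was called in all 17 alternative analyses. Its neighbours Abca8b, Abca9, Abca6 and Abca5 were tested in somatic cells with log2 fold changes of 0.31, -0.36, 0.25 and -0.03, none of them called.

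Abca1 (ENSMUSG00000015243, chromosome 4, 53030787 to 53159895) was at 121, 137 and 133 CPM after dex and 111, 109 and 98.2 CPM after saline in somatic cells. The groups did not overlap, and the change of 0.31 ± 0.07 on the log2 scale was the smallest of the 5 (edgeR adjusted p = 0.0177). The call ended when dex replicate 2 or either of saline replicates 2 and 3 was left out (edgeR adjusted p from 0.0573 to 0.0935), and also with all 12 libraries in 1 fit (0.0592). In germ cells Abca1 was at 167, 174 and 157 CPM after dex and 200.2, 160.4 and 190 CPM after saline, with overlap, and the difference between the cell types was -0.44 ± 0.12 (edgeR adjusted p = 0.0928).

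Abcd2 (ENSMUSG00000055782, chromosome 15, 91145871 to 91191799) was at 18.9, 19.4 and 16.1 CPM after dex and 11.9, 12.9 and 9.33 CPM after saline in somatic cells, without overlap. The log2 fold change was 0.68 ± 0.15 (edgeR adjusted p = 0.0117). The call was lost without dex replicate 2 (0.0589), without saline replicate 3 (0.0622) and with all 12 libraries in 1 fit (0.0510, all edgeR adjusted p). In germ cells Abcd2 had 2 to 6 counts per library and did not pass the filter. Its relatives Abcd3 and Abcd4 were not called in somatic cells.

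**Figure D4:**
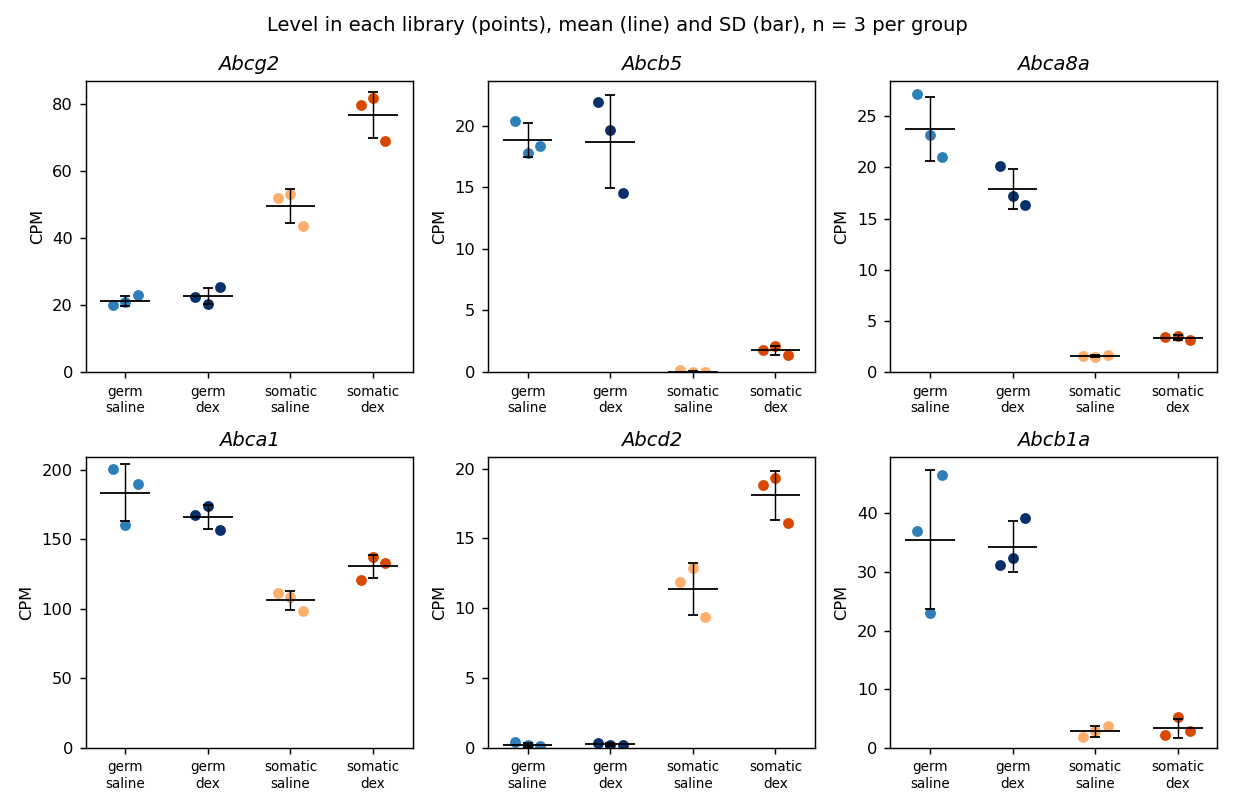
CPM of the 5 members that rose in dex-treated somatic cells, and of Abcb1a, in each of the 12 libraries (points), with the mean (line) and SD (bar) of each group of 3; each panel has its own axis from 0. In the somatic groups of the first 5 panels every dex point lies above every saline point, and for Abcb1a the groups overlap.

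The other exporters that carry steroids were not called in somatic cells. Abcb1a read 2.09, 5.18 and 2.82 CPM after dex and 1.88, 2.84 and 3.64 CPM after saline (log2 fold change 0.28 ± 0.36, edgeR adjusted p = 0.725). Abcb1b read 0.955, 2.48 and 0.881 CPM against 0.502, 0.387 and 0.909 CPM (1.26 ± 0.54, edgeR adjusted p = 0.207), and Abcb4, their neighbour that moves phosphatidylcholine into bile, 0.537, 4.61 and 1.17 CPM against 0.941, 1.87 and 0.424 CPM. Dex replicate 2 was the highest of the 6 somatic libraries for all 3 neighbours. The same library had the highest somatic sum over 6 erythroid genes (16475 CPM), 6 stromal genes (17155 CPM) and 6 germ cell genes (18.8 CPM). The other 5 somatic libraries held 3270 to 12420, 13064 to 16795 and 2.57 to 16.8 CPM of these, in that order. Dex replicate 2 was not the highest for the other marker lists. Whether the pattern comes from its cell makeup was not tested.

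Abcc4 lay just outside the threshold, at 6.15, 7.65 and 7.63 CPM after dex and 4.08, 3.94 and 5.33 CPM after saline in somatic cells. The groups did not overlap, and the log2 fold change was 0.69 ± 0.21 (edgeR adjusted p = 0.0587). It was called with no low-count filter (0.0456) and with all 12 libraries in 1 fit (0.0240, both edgeR adjusted p). Abcc1 (0.08 ± 0.09, edgeR adjusted p = 0.686) and Abcg1 (-0.47 ± 0.22, edgeR adjusted p = 0.253) were not called.

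The test of the difference between the dex effects of germ and somatic cells covered 47 members, and 2 were called, Abcb5 and Abca8a, both with the lower dex effect in germ cells. These were 4.26% of the tested members, where 1.62% of 19390 genes were called. At an unadjusted edgeR p under 0.05 there were 7 members and 15.4% of all genes. DESeq2 called 4 members, adding Abca1 and Abcg2.

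Both of these members were higher in germ than in somatic cells, so the germ cell genes in the somatic fraction were set beside them. Abcb5 in the dex somatic libraries stood at 7.47% to 11.0% of its mean in saline germ cells and Abca8a at 13.1% to 14.9%. The germ cell marker Ddx4 stood at 0.128% to 0.367% and Sycp3, of the meiotic chromosome axis, at 0.267% to 0.712% in the same libraries. Pou5f1, Dppa3 and the germ-restricted member Abcb11 had 0 counts in all 3, and Abca16 had 3 counts in 1 of them. Other members higher in germ cells stood near Abcb5 and Abca8a in these libraries. Abcb9 was at 5.65% to 13.4%, Abcb1a at 5.88% to 14.6% and Abcb4 at 3.60% to 30.9%, and none of them was called for dex in somatic cells. Dazl, a germline RNA-binding factor, rose in the somatic fraction (log2 fold change 3.43, edgeR adjusted p = 2.92e-07) and stood at 1.15% to 1.18% of its germ cell level in the dex libraries. Over all 6 germ markers the summed level was 14.9 to 18.8 CPM in dex and 2.57 to 4.91 CPM in saline somatic libraries, with 1 of 3 tested markers, Dazl, called. Dazl alone was the larger part of the dex sum, at 12.4 to 12.8 CPM in dex and 0.970 to 1.36 CPM in saline libraries. Ddx4 overlapped between the treatments, at 0.776 to 2.23 CPM in dex and 0.502 to 1.61 CPM in saline libraries. The part of germ cell RNA in the somatic rises of Abcb5 and Abca8a was not tested.

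**Figure D5:**
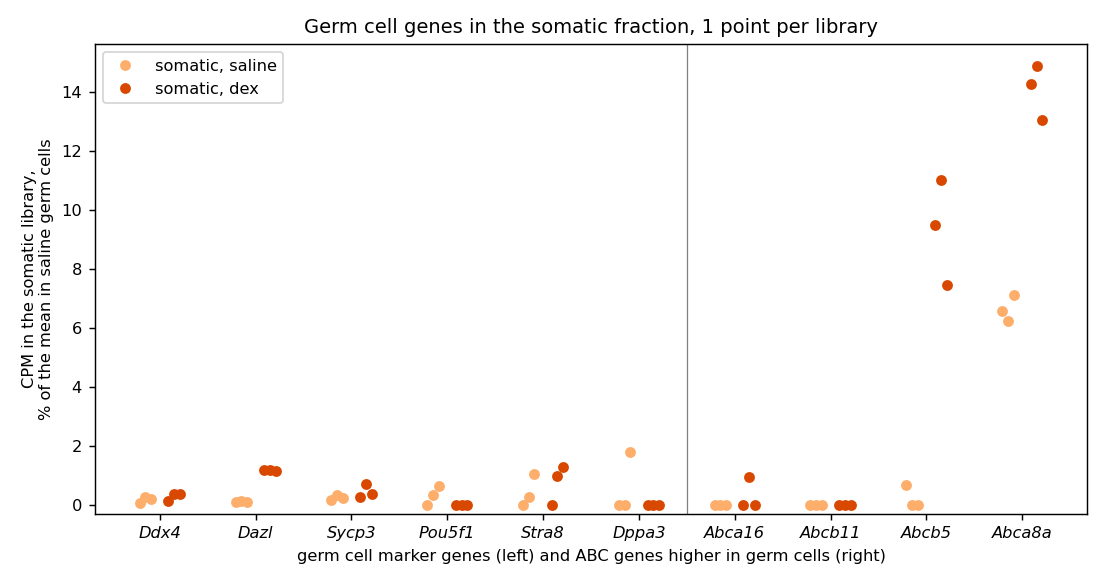
Level of 6 germ cell markers (left) and 4 members higher in germ cells (right) in the saline (light) and dex (dark) somatic libraries, as a percentage of the mean CPM in saline germ cells, 1 point per library. Abcb5 and Abca8a in dex libraries stand at 7.47% to 14.9%, above every marker, of which the highest point is Dppa3 at 1.79% in 1 saline library. Abcb1a, Abcb4 and Abcb9, also higher in germ cells, are not plotted.

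Markers of other somatic cell types also moved with dex. Of 8 macrophage markers 5 fell and none rose, with a summed level of 49.5 to 133 CPM in dex and 188 to 262 CPM in saline libraries. Of the 6 perivascular markers Cspg4 and Kcnj8 rose, and of the 6 stromal markers Pdgfra rose, while the summed levels overlapped for both lists. Endothelial markers had 1 of 6 called in each direction (260.5 to 291 CPM against 285 to 328 CPM), and of the 6 pregranulosa markers Wnt4 fell (829 to 1023 against 986 to 1080 CPM). Of 4 adrenocortical genes 2 were tested, and 1, Mc2r, the receptor for adrenocorticotropic hormone, rose (summed level 19.3 to 21.5 against 9.88 to 14.1 CPM). Mc2r alone averaged 9.09 CPM in dex and 1.99 CPM in saline somatic libraries. None of the erythroid or mesothelial markers was called. The part of these shifts in the 5 rises was not tested.

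Regulators and partners of the family were read from lists of 14 transcription factors, 12 sterol handling genes and 3 further ABC genes. In somatic cells 10 of the factors were tested: Ppard, a fatty acid receptor, rose (0.63 ± 0.11, edgeR adjusted p = 0.00278), Nfe2l2, the factor of the oxidative stress response, rose (0.47 ± 0.08, edgeR adjusted p = 0.00251), and Srebf2, which drives cholesterol synthesis genes, fell by 0.35 on the log2 scale (edgeR adjusted p = 0.00322). Of the 2 liver X receptor genes, which act on Abca1 and Abcg1, Nr1h2 was at 76.9 ± 9.38 CPM after saline and 73.2 ± 6.72 CPM after dex. Nr1h3 was at 1.10 ± 0.782 and 0.997 ± 0.490 CPM, and neither was called. The pregnane X receptor gene Nr1i2, which acts on the P-glycoprotein genes, was under 1 CPM in all 12 libraries.

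Among the 11 sterol handling genes tested in somatic cells none rose, and Apoe, an acceptor of cellular cholesterol, fell by 0.64 on the log2 scale (edgeR adjusted p = 0.0167). Apoe is also made by macrophages, whose markers fell in the same libraries. In germ cells none of 11 factors, 8 sterol handling genes and 2 further ABC genes tested was called. Nfe2l2 was the 1 gene of these lists called in the difference test (-0.58 ± 0.12, edgeR adjusted p = 0.0170). Cftr, Tap1 and Tap2, which belong to the same protein family, were not called in somatic cells.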

How the data were processed

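RNA was measured in 12 libraries of sorted E15.5 ovarian cells, 3 per group. The authors deposited gene counts, from pairs aligned to mm10 with HISAT2 2.0.5 and counted with featureCounts 1.5.0-p3 per the submitters' notes, and FPKM values made from those counts. Strand setting and multi-mapped reads were not stated, so values of close copies and overlapping genes are uncertain. The authors also deposited tables of their own DESeq2 1.20.0 comparisons (log2 fold changes and p-values), which were not used. The members and gene lists were chosen with earlier results of these data known.

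Counts were tested across all genes with edgeR 4.0.16 (quasi-likelihood test, TMM scaling, filterByExpr, BH adjustment, R 4.3.3). The 2 dex tests used the 6 libraries of a cell type, the cell type test the 6 saline libraries, and the difference test all 12. Standard errors are those implied by the F statistic. CPM divides each count by the TMM-scaled library size. The fit was tested on simulated counts. Alternatives were DESeq2 1.42.0, RLE scaling, no filter, at least 1 CPM in 3 libraries, a replicate block, all 12 libraries in 1 fit, and leaving out each library. Libraries of 1 group differed beyond sampling noise. Depth limited values near the floor of 3 counts. Named were 7 steroid, drug and cholesterol pumps, every member called for dex, the 6 called members furthest in each direction between cell types with a mean of at least 1 CPM, and the 5 with the highest FPKM per cell type. Other members are given by counts or, where 5 or fewer fell in a count or they neighbour a named gene, were named after their values were seen. Some genes that these rules name are not reported here, but remain in all fits and counts.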

Additional observations from a re-analysis of the deposited data

Results flagged for a closer look

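Among the members tested for a difference between the dex effects of germ and somatic cells, 2 differed by the test itself. For Abca8a the germ effect minus the somatic effect was -1.49 on the log2 scale (edgeR adjusted p = 0.00607), with the 3 dex libraries below the 3 saline libraries in germ cells and above them in somatic cells. For Abcb5 it was -5.17 (edgeR adjusted p = 0.000346), with overlapping groups in germ cells and 91 counts after dex against 2 after saline in somatic cells, so its size depends on the prior count of the fit. No test for outlying libraries was run, but both members were called in all 12 fits that left out 1 library.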

How the results depend on the processing

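In somatic cells the number of members called for dex was 5, and it ranged from 2 (without dex replicate 2 or saline replicate 3) through 3 (without saline replicate 2) to 8, 3 of them lower (without dex replicate 3), when 1 library was left out, and from 4 to 7 under the other alternatives. Abcb5 and Abcg2 were called under all 12. In the difference test the 2 called members became 4 with DESeq2 and 4 with no low-count filter, both adding Abca1 (-0.45 and -0.44) and Abcg2 (-0.55 and -0.54), and ranged from 2 to 3 with 1 library left out. The germ cell count stayed 0, and the cell type count ran from 37 to 43. The libraries were not treated as pairs: the labels name no shared source for a number, and correlations of same-numbered deviations ran from -0.0093 to 0.132 between treatments. Between germ and somatic libraries of a treatment they ran from 0.0553 to 0.0991, against -0.0605 to -0.0105 for other numbers, and all 6 libraries of each treatment correlated best with their own number, a hint of a shared source from the data and not from the design. With the replicate block the germ, somatic, difference and cell type counts were 0, 6, 2 and 40 (the somatic addition was Abca2, lower), and the germ cell dex values of Abcb1a (0.0097) and Abcb5 (-0.0062) changed sign. Abcg1 between cell types changed sign with DESeq2 (0.012) and RLE scaling (0.017). With 1 library left out, uncalled values crossed 0 for dex in germ cells of Abcb1a (-0.27 to 0.20), Abcb1b (-0.12 to 0.36), Abcb5 (-0.15 to 0.17) and Abcc1 (-0.12 to 0.073), for dex in somatic cells of Abcb1a (-0.19 to 0.53) and Abcc1 (-0.010 to 0.14), for the difference of Abcb1a (-0.56 to 0.14) and Abcg1 (-0.10 to 0.45), and for Abcg1 between cell types (-0.15 to 0.15). The fitted somatic value of Abcb5 ran from 4.64 to 7.89, the highest without saline replicate 1, which held the 2 saline counts. The cause of these shifts was not tested. Ranked by CPM in place of FPKM, 3 of the 5 most abundant members in saline germ cells and 4 of 5 in saline somatic cells were the same.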
